A study of Homo sapiens with 18 samples.

Results

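The epidermal growth factor receptor (EGFR) family consists of cell-surface tyrosine kinases that pair up when a ligand binds and then signal through adaptors to the RAS-ERK and PI3K cascades. Their ligands are made as membrane-bound precursors, cut free by ADAM proteases and often act on the cell that made them. EGFR is a frequent driver and drug target in lung adenocarcinoma. Described here are 10 genes of this system, namely the receptors EGFR, ERBB2 and ERBB3, the ligands TGFA, AREG, EREG, HBEGF, BTC and NRG1, and the inhibitor ERRFI1. They were taken from the 63677 rows of the count table by matching Ensembl identifiers to these symbols, and 7 of them had enough reads to be tested. The genes were chosen by family, with their changes against the controls in these libraries already known, so their values are described and support nothing beyond themselves.

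RNA was sequenced from NCI-H1299, a human lung cancer cell line, in 18 libraries with 3 in each of 6 groups. Cells in 4 groups were transiently transfected with a plasmid for 1 T-box transcription factor, either human TBX2, TBX3 or TBX4 or mouse Tbx5. TBX2 and TBX4 carried a Flag tag in pORF plasmids, and TBX3 and Tbx5 an HA tag in pCGN plasmids. The controls were cells given an empty vector (EV), whose backbone is not named, and cells labelled Ctl, whose treatment is not named either. A single EV group stands for both backbones. Between groups on different backbones, factor, backbone and tag cannot be told apart. All groups share the same parental line and no TBX gene was deleted in any of them. Each value is an average over cells that took up plasmid and cells that did not, and in such bulk RNA a change in the number of cells of a kind and a change in RNA per cell cannot be told apart. The labels do not state that replicates were separate cultures, so p-values measure only the spread between these libraries.

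Libraries held 7365221 to 11743179 counts, and a single row without a gene symbol (ENSG00000266658) took between 10.7% and 53.5% of them. Counts were therefore scaled by the trimmed mean of M-values (TMM) and are given as CPM, the count as a share of the scaled library, on which the floor of 3 counts was worth 0.191 to 0.593 CPM. The plasmid genes matched the labels, with TBX2 at 4073 to 4806 CPM, TBX3 at 17690 to 25340, TBX4 at 7520 to 8471 and mouse Tbx5, counted on the human gene, at 128 to 242 in their own libraries. One library is labelled 4c-TBX5. It held 85197 TBX4 counts and 1 TBX5 count and stands here as TBX4 replicate c, and the counts of calls and the calls of named genes with TBX4 are also given without it. Markers of lung adenocarcinoma were nearly absent, with at most 10 counts of NKX2-1, NAPSA, SFTPA1, SFTPB and SFTPC in any library. Of 6 epithelial genes, EPCAM, CDH1 and KRT19 reached at most 3 counts and KRT7 at most 28, whereas KRT8 was at 33.7 CPM and KRT18 at 61.5 CPM on average over the 18 libraries. The mesenchymal genes VIM, CDH2, FN1 and ZEB1 were at 820, 26.8, 44.5 and 46.0 CPM. The immune genes PTPRC and CD3E reached at most 4 counts and 1 count.

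TGFA encodes transforming growth factor alpha, a ligand of EGFR, and was the member whose level moved most against the controls. It lies on the minus strand of chromosome 2 (GRCh37, 70674416 to 70781325), and RefSeq places 2 start windows on it. Both windows are shown because the plasmids encode DNA-binding T-box proteins. Each runs from 250 bases before to 50 bases after a start, was taken from the GRCh38.p14 table of RefSeq and matched GRCh37 exactly once. Capitals mark GGTGT or its reverse complement ACACC, the core letters of the T-box motif AGGTGTGA.

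TGFA start window at chr2:70780909-70781208 (minus strand): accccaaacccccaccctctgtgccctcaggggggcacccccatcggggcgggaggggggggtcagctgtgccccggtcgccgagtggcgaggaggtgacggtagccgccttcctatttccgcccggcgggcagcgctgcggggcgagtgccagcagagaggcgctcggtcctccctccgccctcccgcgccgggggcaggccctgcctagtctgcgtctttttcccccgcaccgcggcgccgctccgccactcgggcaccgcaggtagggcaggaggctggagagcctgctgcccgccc
TGFA start window at chr2:70780529-70780828 (minus strand): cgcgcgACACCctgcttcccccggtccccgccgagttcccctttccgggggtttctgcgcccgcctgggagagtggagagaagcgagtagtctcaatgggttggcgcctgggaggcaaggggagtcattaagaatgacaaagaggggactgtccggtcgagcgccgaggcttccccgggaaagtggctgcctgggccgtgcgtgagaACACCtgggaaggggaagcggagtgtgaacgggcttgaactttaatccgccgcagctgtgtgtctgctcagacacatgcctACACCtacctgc

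The upstream window held no GGTGT on either strand and the downstream window held it 3 times. Among all 35116 promoter windows of the same length, 37.4% held GGTGT on either strand at least once and 1.90% held it 3 or more times. Neither window held the full AGGTGTGA, which was present in 0.98% of all windows. Among 10 windows examined for 8 of the 10 members, none held GGTGTGA, which was present in 3.45% of all windows. Repeats of GGTGT were not particular to TGFA, as the BTC window held it 4 times. The windows of AREG and ERBB2 and 1 window of EGFR held it 1 time each, and those of ERRFI1, EREG and HBEGF did not hold it. ERBB3 had no window and those of NRG1 were not examined. A match describes letters only, and no binding was measured here.

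In the controls TGFA stood at 25.4, 29.3 and 24.4 CPM in the 3 Ctl libraries and at 22.7, 23.3 and 25.8 CPM in the 3 EV libraries. With TBX4 it stood at 48.4, 47.5 and 46.5 CPM, the last in the library labelled 4c-TBX5. With TBX5 it stood at 39.7, 37.4 and 42.1 CPM. All 6 of these libraries lay above the highest control library. TGFA rose 1.87-fold with TBX4 (log2 fold change 0.91, SE 0.07, edgeR adjusted p = 6.759e-10, n = 3 against 6). It rose 1.57-fold with TBX5 (log2 fold change 0.65, SE 0.08, edgeR adjusted p = 1.737e-05, n = 3 against 6). Without the library labelled 4c-TBX5 the log2 fold change with TBX4 was 0.92 (edgeR adjusted p = 6.311e-09).

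TGFA went the other way with the remaining pair of factors. With TBX2 it stood at 22.2, 19.2 and 22.8 CPM, of which the highest was just inside the control range. With TBX3 it stood at 22.1, 18.1 and 20.6 CPM, below the lowest control library. It fell by 0.25 with TBX2 and by 0.31 with TBX3 on the log2 scale (edgeR adjusted p = 0.0455 and 0.0233). Both of these smaller changes depended on single libraries and on the choice of controls. Without TBX2 replicate b the fall with TBX2 had an edgeR adjusted p of 0.264, and without TBX3 replicate b the fall with TBX3 had 0.123. Against the EV libraries alone they had 0.226 and 0.109.

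Placed directly against each other in 1 fit of the 18 libraries, TGFA was lower with TBX2 than with TBX4 by a log2 difference of -1.16 (95% interval -1.34 to -0.98, edgeR adjusted p = 1.216e-10). Against TBX5 the TBX2 libraries differed by -0.90 (edgeR adjusted p = 8.752e-08). The TBX3 libraries differed from TBX4 by -1.22 and from TBX5 by -0.97 (edgeR adjusted p = 7.424e-11 and 1.004e-07). All 4 differences kept their call when any 1 library was left out, with adjusted p of at most 3.733e-06. TGFA with TBX4 was higher than with TBX5 by 0.26 (95% interval 0.09 to 0.43), and although their libraries did not overlap the difference did not pass the test (edgeR adjusted p = 0.328). Between TBX2 and TBX3 the log2 difference was 0.06 (95% interval -0.14 to 0.26, edgeR adjusted p = 0.769).

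**Figure D1:**
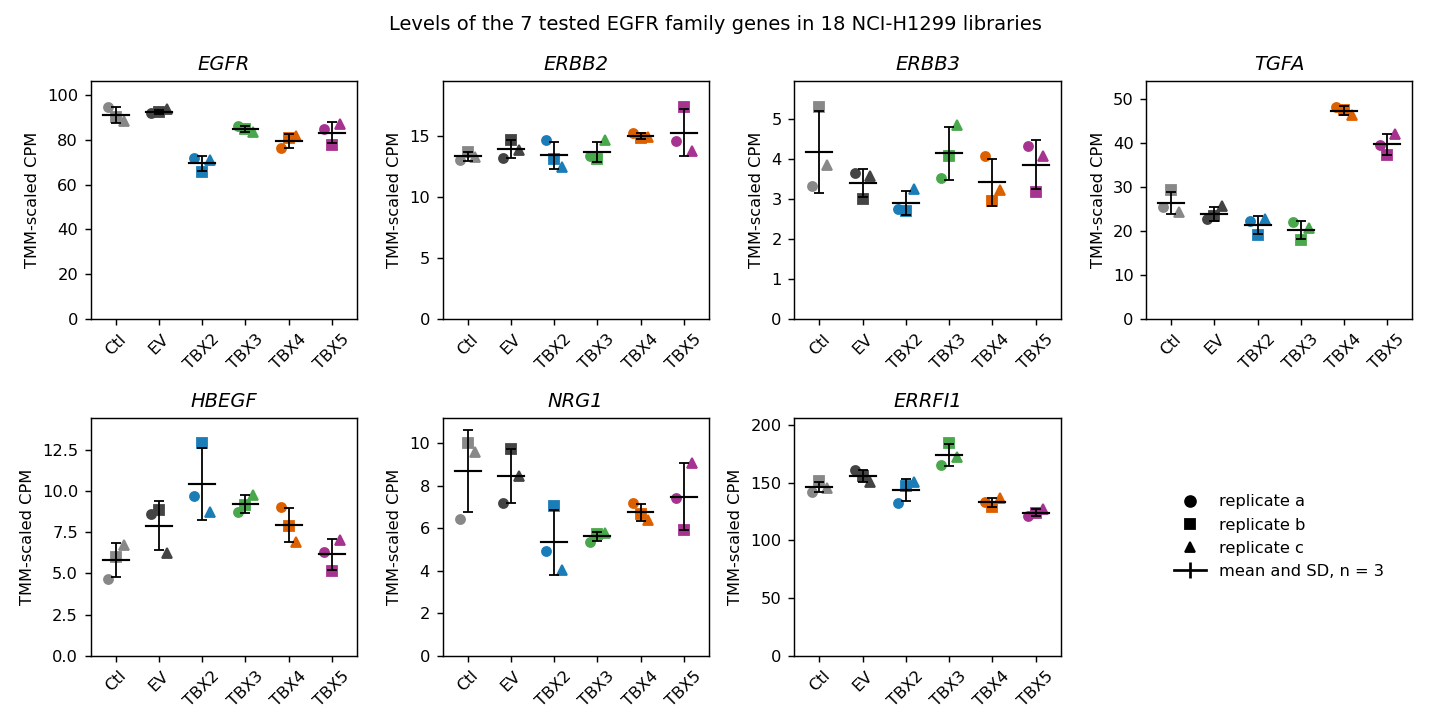
TMM-scaled CPM (linear axis from 0) of the 7 tested genes in each library, with the 3 replicates of a group as circle, square and triangle and the mean and SD (n = 3) as bars; the TBX4 triangle is the library labelled 4c-TBX5. TGFA stands at 46.5 to 48.4 CPM with TBX4 and at 37.4 to 42.1 with TBX5, above all 6 control libraries, while EGFR is lowest with TBX2 at 65.9 to 72.0 CPM.

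Counted over the family, 4 of the 7 tested members were called with TBX2 (1 higher and 3 lower), where 32.6% of all 15576 tested genes were called (17.0% higher and 15.6% lower). With TBX3 the count was 4 (2 higher and 2 lower) beside 14.9% of all genes (8.47% higher and 6.40% lower), and with TBX4 it was 4 (1 higher and 3 lower, or 3 in all without the library labelled 4c-TBX5) beside 13.0% (6.98% higher and 6.07% lower). With TBX5 it was 2 (1 higher and 1 lower) beside 12.7% (6.56% higher and 6.12% lower). A gene was called at an edgeR adjusted p under 0.1 over all tested genes. These counts carry no test of the family. The median log2 fold change of the 7 members was -0.25 in the TBX2 comparison, 0.02 in TBX3, -0.16 in TBX4 and -0.13 in TBX5. The medians over all tested genes lay between -0.0058 and -0.0013 in the same comparisons. The 4 comparisons share their 6 control libraries and are set side by side here.

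Among the receptors, EGFR itself (chromosome 7, 55086710 to 55279321) fell with TBX2 and TBX4. Its level was 95.0, 90.3 and 88.4 CPM in the Ctl libraries and 91.9, 92.6 and 93.7 CPM in the EV libraries. With TBX2 it was 72.0, 65.9 and 70.9 CPM, which is below every other library of the study. With TBX4 it was 76.3, 80.7 and 81.9 CPM. EGFR fell by 0.40 on the log2 scale with TBX2 (SE 0.06, edgeR adjusted p = 2.297e-05) and by 0.21 with TBX4 (SE 0.05, edgeR adjusted p = 0.012). Both calls were kept when any 1 library was left out, and without the library labelled 4c-TBX5 the change with TBX4 was -0.23 (adjusted p = 0.0311).

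With TBX3 EGFR was at 86.5, 84.8 and 83.8 CPM and with TBX5 at 84.7, 77.9 and 87.4 CPM, in each case under the lowest control library. Neither passed the test, with log2 fold changes of -0.11 (95% interval -0.23 to -0.0038) and -0.14 (95% interval -0.26 to -0.02) and edgeR adjusted p of 0.192 and 0.146. Scaled by library totals without the most counted row, both passed (adjusted p = 0.0715 and 0.0946). EGFR was lower with TBX2 than with each of the other factors, by -0.29 against TBX3, -0.20 against TBX4 and -0.26 against TBX5 on the log2 scale (edgeR adjusted p = 0.00306, 0.0537 and 0.01). The difference from TBX4 no longer passed without the library labelled 4c-TBX5 (adjusted p = 0.146), without TBX4 replicate b (0.146) or without TBX2 replicate b (0.19).

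ERBB2 (chromosome 17, 37844167 to 37886679), the family member that has no ligand of its own and serves as a partner for the others, was called in none of the comparisons under TMM scaling. On plain library totals it was called with TBX4 (log2 fold change 0.39, edgeR adjusted p = 0.0982), where the median of all genes also moved, to 0.25. It ranged from 12.5 CPM in a TBX2 library to 17.4 CPM in a TBX5 library. Its log2 fold changes were -0.02 with TBX2 (95% interval -0.21 to 0.18), 0.02 with TBX3 (-0.16 to 0.21), 0.13 with TBX4 (-0.03 to 0.30) and 0.15 in the TBX5 libraries (-0.06 to 0.36). Genes annotated on the same bases cover 6.93% of the ERBB2 exons.

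ERBB3 (chromosome 12, 56470583 to 56497289), which binds neuregulins and has a nearly inactive kinase, was the least counted of the 3 receptors, with 16 to 69 counts per library. It stood at 3.78 CPM ± 0.80 (SD, n = 6) in the controls. With TBX2 it was at 2.90 CPM ± 0.29, in TBX3 at 4.14 ± 0.66, in TBX4 at 3.42 ± 0.58 and in TBX5 at 3.85 ± 0.61 (SD, n = 3 each). None of the 4 passed against the controls, the farthest being TBX2 at a log2 fold change of -0.41 (95% interval -0.83 to 0.02, edgeR adjusted p = 0.153). TBX2 was lower than TBX3 by -0.58 (edgeR adjusted p = 0.0935), a call that was lost in 10 of the 18 fits that left out 1 library and in DESeq2 (adjusted p = 0.221). The fourth receptor of the family, ERBB4, was at 1.26 to 3.24 CPM, and rose with TBX4 by 0.59 on the log2 scale (SE 0.22, edgeR adjusted p = 0.092), a call that was lost without the library labelled 4c-TBX5 (adjusted p = 0.27).

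**Figure D2:**
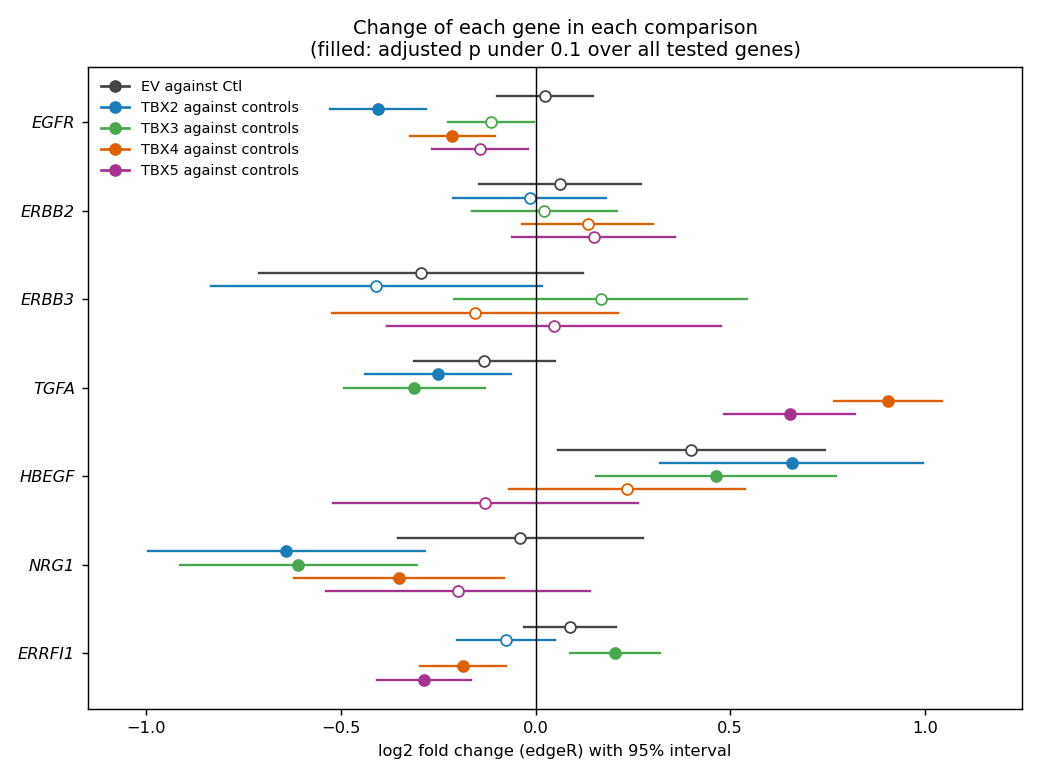
Log2 fold change (horizontal axis, edgeR) with its 95% interval for each of the 7 tested genes in EV against Ctl and in each TBX against the 6 controls, filled where the adjusted p over all tested genes was under 0.1. TGFA is filled in all 4 TBX comparisons, at 0.91 and 0.65 with TBX4 and TBX5 and at -0.25 and -0.31 with TBX2 and TBX3, and no gene is filled in EV against Ctl.

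Of the other ligands, HBEGF (chromosome 5, 139712428 to 139726188) encodes heparin-binding EGF-like growth factor, which binds EGFR and ERBB4. It was at 4.69, 6.02 and 6.72 CPM in the Ctl libraries and at 8.66, 8.88 and 6.24 CPM in the EV libraries. With TBX2 it was at 9.73, 12.9 and 8.74 CPM and with TBX3 at 8.75, 9.18 and 9.81 CPM. In both groups 1 library lay within the control range. HBEGF rose by 0.66 on the log2 scale with TBX2 (SE 0.16, edgeR adjusted p = 0.00435) and by 0.46 with TBX3 (SE 0.15, edgeR adjusted p = 0.0479).

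The 2 kinds of control differed in HBEGF without passing the test. EV was above Ctl by 0.40 on the log2 scale (95% interval 0.06 to 0.74, edgeR adjusted p = 0.473). Against the EV libraries alone the change with TBX3 was 0.28 (edgeR adjusted p = 0.281) and that with TBX2 was 0.48 (edgeR adjusted p = 0.0496). The TBX3 call was also lost without TBX3 replicate c (adjusted p = 0.221) or TBX3 replicate b (0.101). With TBX4 HBEGF was at 9.02, 7.92 and 6.92 CPM and with TBX5 at 6.31, 5.14 and 7.05 CPM, and neither passed (edgeR adjusted p = 0.37 and 0.748). HBEGF was higher than with TBX5 by 0.78 with TBX2 and by 0.59 with TBX3 (edgeR adjusted p = 0.00707 and 0.0688), and the second of these calls was lost on leaving out any of 4 single libraries and in DESeq2 (adjusted p = 0.101).

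NRG1 (chromosome 8, 31496738 to 32713184) encodes neuregulin 1, a ligand of ERBB3 and ERBB4. It was at 6.45, 10.0 and 9.59 CPM in the Ctl libraries and at 7.18, 9.74 and 8.46 CPM in the EV libraries. With TBX2 it was at 4.92, 7.02 and 4.05 CPM, and with TBX3 at 5.36, 5.72 and 5.75 CPM. The TBX3 libraries lay below all 6 controls, and 1 of the TBX2 libraries lay within the control range. NRG1 fell by 0.64 with TBX2 and by 0.61 with TBX3 on the log2 scale (SE 0.17 and 0.15, edgeR adjusted p = 0.00787 and 0.00906), and both calls were kept when any 1 library was left out.

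With TBX4 NRG1 was at 7.19, 6.67 and 6.37 CPM and with TBX5 at 7.41, 5.93 and 9.09 CPM. The TBX4 value was called at the edge of the threshold (log2 fold change -0.35, edgeR adjusted p = 0.0997) and lost its call in 7 of 9 fits that left out 1 library, including the one without the library labelled 4c-TBX5 (adjusted p = 0.254), and in DESeq2 (adjusted p = 0.185). The TBX5 value did not pass (log2 fold change -0.20, 95% interval -0.54 to 0.14). No pair of TBX groups differed in NRG1 past the threshold, so a difference between the factors was not shown for it. Other genes cover 9.47% of its annotated exon bases, and reads from them were not separated here.

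The remaining 3 ligands AREG (amphiregulin), EREG (epiregulin) and BTC (betacellulin) stayed below the filter of more than 5 counts in at least 10 libraries and were not tested. AREG had 1 count in each of 3 libraries (TBX3 replicates a and c and TBX5 replicate a) and 0 in the other 15. EREG had 10 counts in all, 5 of them in TBX4 replicate a. BTC had 33 counts in all, with at most 7 in a library (TBX2 replicate b) and 0 in the 3 TBX5 libraries. Apart from 4 and 7 counts of BTC with TBX2 and the 5 counts of EREG, all of these values were at or under the floor of 3 counts, and no difference between groups was detectable at this depth.

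AREG carries a further uncertainty. GRCh37 holds a nearly identical copy, AREGB (chromosome 4, 75480629 to 75490486), and 1441 of the 1639 stretches of 100 bases along AREG transcripts (87.9%) also occur in AREGB transcripts. AREGB was at 0 in all 18 libraries. Reads that fit both places equally would not be counted under the stated default settings of the counting program, so the AREG count may be too low. AREG, EREG and BTC sit in 1 cluster with EPGN on chromosome 4 (75174187 to 75719733), in which none of the 5 protein-coding genes was tested. Of the ligands outside the list, EGF and EPGN had at most 2 counts and NRG3 at most 6 in any library. NRG2 averaged 7.13 CPM and NRG4 2.09 CPM over the 18 libraries, and NRG2 fell by 0.58 on the log2 scale with TBX2 (edgeR adjusted p = 0.00289).

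**Figure D3:**
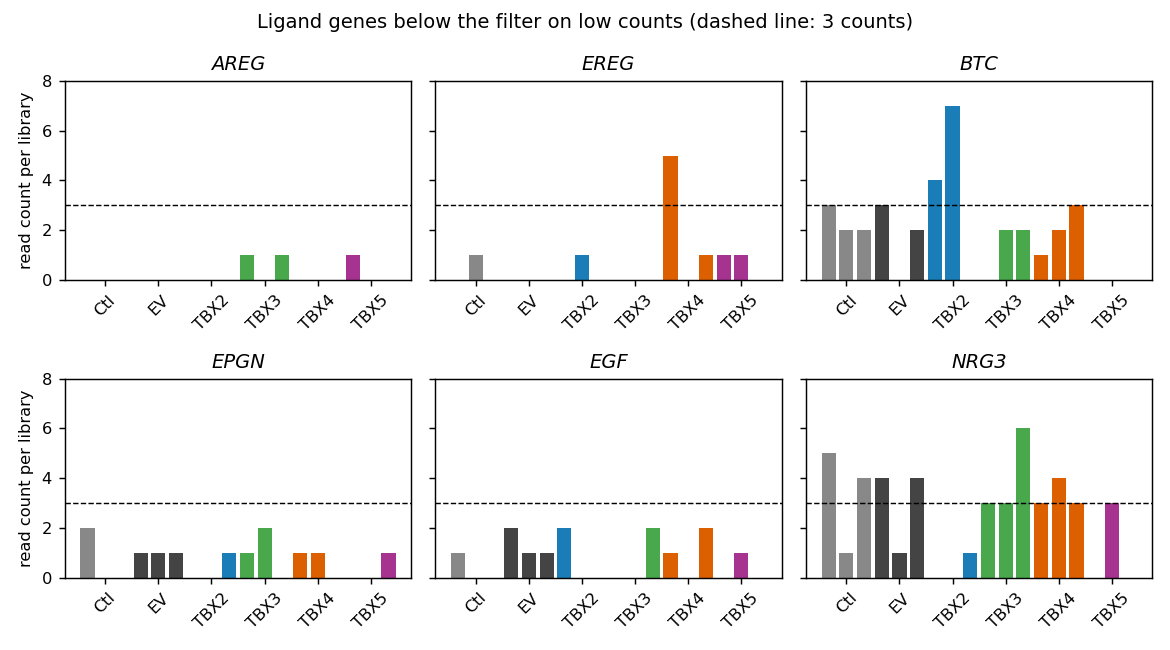
Read counts (vertical axis, raw counts from 0 to 8) of the 6 ligand genes below the filter in each of the 18 libraries, with 3 bars per group and a dashed line at 3 counts. AREG shows 3 bars of 1 count, BTC is highest at 7 counts in TBX2 replicate b, and EREG reaches 5 counts in TBX4 replicate a.

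ERRFI1 (chromosome 1, 8064464 to 8086369) encodes MIG6, a feedback inhibitor that binds the EGFR kinase. It stood at 142, 151 and 145 CPM in the Ctl libraries and at 161, 156 and 150 CPM in the EV libraries. With TBX3 it was at 166, 184 and 172 CPM, above all 6 controls. With TBX4 it was at 134, 129 and 136 CPM and with TBX5 at 121, 124 and 127 CPM, below all 6 controls, and TBX2 at 133, 147 and 150 CPM overlapped them. ERRFI1 rose by a log2 fold change of 0.20 with TBX3 (SE 0.06, edgeR adjusted p = 0.0189). It fell by 0.19 with TBX4 (SE 0.05, edgeR adjusted p = 0.028) and by 0.29 with TBX5 (SE 0.06, edgeR adjusted p = 0.00325).

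The opposed changes of ERRFI1 were also seen directly between the factors. TBX3 was above TBX4 by 0.39 and above TBX5 by 0.49 on the log2 scale (edgeR adjusted p = 0.000239 and 1.521e-05), calls that were kept when any 1 library was left out. TBX3 was also above TBX2, where the log2 difference of TBX2 against TBX3 was -0.28 (edgeR adjusted p = 0.00361). TBX2 was above TBX5 by 0.21 (edgeR adjusted p = 0.0473), which 4 single libraries could end. Against the controls, the call with TBX3 was lost without TBX3 replicate b (adjusted p = 0.129) or against EV alone (0.122), and that with TBX4 without TBX4 replicate b (0.155) or against Ctl alone (0.158). Scaling by library totals without the most counted row also ended the TBX3 call (adjusted p = 0.12). Without the library labelled 4c-TBX5 the TBX4 change was -0.20 (edgeR adjusted p = 0.0627).

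Between the pairs of TBX groups, 3 members were called in TBX2 against TBX3, where 15.5% of all genes were called. The count was 2 in TBX2 against TBX4 (12.3% of all genes), 4 in TBX2 against TBX5 (12.1%), 2 in TBX3 against TBX4 (9.98%) and 3 in TBX3 against TBX5 (7.41%). In TBX4 against TBX5 no member was called in edgeR or DESeq2, beside 0.539% of all genes. TGFA was the only member at an unadjusted edgeR p under 0.05 there. In EV against Ctl no member was called in edgeR or DESeq2, beside 0.385% of all genes, and HBEGF was the only one at an unadjusted p under 0.05, as were 1432 of all tested genes.

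Compared between genes per length of exon, in RPKM (CPM divided by exon length in kilobases), the inhibitor stood far above the receptors and ligands in the controls. ERRFI1 was at 36.1 RPKM ± 1.63, EGFR at 5.77 ± 0.15, TGFA at 5.11 ± 0.48, HBEGF at 2.3 ± 0.54 and ERBB2 at 1.32 ± 0.06 (SD, n = 6). NRG1 at 0.40 RPKM ± 0.07 and ERBB3 at 0.32 ± 0.07 overlapped within their SD and are not ordered. BTC at 0.07, EREG at 0.0026 and AREG at 0 followed, all from counts near the floor. With TBX4 TGFA was at 9.65 RPKM ± 0.19 and EGFR at 4.99 ± 0.19 (n = 3), so that the ligand stood above its receptor. The same held with TBX5, at 8.08 ± 0.48 and 5.23 ± 0.31. With TBX2 TGFA at 4.35 ± 0.40 and EGFR at 4.37 ± 0.20 were indistinguishable, and with TBX3 TGFA at 4.12 ± 0.41 stood below EGFR at 5.33 ± 0.09. This order of ligand and receptor depends on the exon lengths used, 4917 bases for TGFA and 15941 for EGFR. Exon lengths came from a later annotation than the one used for counting, which can shift the level of a gene but not its change between groups.

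Around the 10 genes, a list of 58 further genes was examined. It holds the other ligands and ERBB4, genes that shed the ligands, restrain the receptors or carry the signal, and genes induced through ERK. Of these 58 genes 50 were tested. With TBX2 18 were called (7 higher and 11 lower) and with TBX3 14 (13 higher and 1 lower). With TBX4 13 were called (5 higher and 8 lower), or 9 without the library labelled 4c-TBX5, and with TBX5 9 (4 higher and 5 lower). The shares of all genes called were those given above for each comparison. Median log2 fold changes of the 50 were -0.03, 0.07, -0.02 and 0.04. In EV against Ctl none of the 50 was called in edgeR or DESeq2.

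The counts of smaller groups carry no test and stand beside 32.6%, 14.9%, 13.0% and 12.7% of all tested genes called with TBX2 to TBX5. Of 10 adaptor genes 2 were called in the TBX2 comparison, 2 in TBX3, 3 in TBX4 and 1 in TBX5. SHC1, the adaptor that couples the receptors to RAS, was the only one of them called lower with all 4 factors, with log2 fold changes of -0.56, -0.19, -0.21 and -0.29 from TBX2 to TBX5 (edgeR adjusted p = 8.025e-07, 0.0297, 0.0146 and 0.00298). Its level was 113 CPM ± 4.97 in the controls (SD, n = 6) and 76.3 ± 5.57 with TBX2 (n = 3). The 3 adaptor calls with TBX4 were kept without the library labelled 4c-TBX5. Of the 10 genes of the RAS-ERK cascade 4 were called with TBX2 and 2 with TBX3, and none with TBX4 or TBX5. None of the 4 tested shedding genes was called with TBX4 or TBX5, and 1 each with TBX2 and TBX3. With TBX2 that gene was RHBDF1, which helps the sheddase ADAM17 mature, at 9.36 CPM ± 0.73 against 4.46 ± 0.72 in the controls (log2 fold change 1.09, SE 0.14, edgeR adjusted p = 3.945e-06), and it is named after its values were seen.

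Among 8 tested genes that restrain the receptors or control their turnover, 4 were called with TBX2 (3 higher) and 4 with TBX3 (all higher). With TBX4 2 were called (1 higher) and with TBX5 3 (2 higher). The shares of all tested genes called with these 4 factors were 32.6%, 14.9%, 13.0% and 12.7%. The higher call with TBX4 was lost without the library labelled 4c-TBX5 (edgeR adjusted p = 0.107). ERBIN, a scaffold that binds ERBB2, fell with 3 factors, from 338 CPM ± 8.97 in the controls to 291 ± 20.1 with TBX2, 285 ± 13.6 with TBX4 and 285 ± 15.8 with TBX5. With TBX3 ERBIN was at 358 CPM ± 6.70 and did not pass (edgeR adjusted p = 0.375).

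Of 12 tested genes known to be induced through ERK, 5 were called with TBX2 (1 higher) and 5 with TBX3 (all higher). With TBX4 7 were called (3 higher) and with TBX5 5 (2 higher). All tested genes were called in 32.6%, 14.9%, 13.0% and 12.7% with these 4 factors. The early-response transcription factor EGR1 rose with all 4, from 7.87 CPM ± 3.23 in the controls to 84.3 ± 18.2 in the TBX2 libraries, 44.3 ± 9.36 in TBX3, 15.5 ± 1.11 in TBX4 and 20.2 ± 4.75 in TBX5. Its log2 fold changes were 3.45, 2.51, 1.02 and 1.35 (edgeR adjusted p = 2.152e-13, 1.547e-10, 2.950e-04 and 2.873e-04). EGR1 also stood higher in EV than in Ctl, at 10.1 against 5.61 CPM, without passing the test (log2 fold change 0.78, edgeR adjusted p = 0.139). SPRY4, an inhibitor of the cascade, rose with TBX3, TBX4 and TBX5 by 0.46, 0.30 and 0.29 on the log2 scale.

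Other genes of this group fell. SPRY2, a relative of SPRY4, fell with TBX2, TBX4 and TBX5 (log2 fold changes -0.57, -0.34 and -0.35), as did the AP-1 subunit FOSL1 (-0.30, -0.26 and -0.27) and PHLDA1 (-0.18, -0.23 and -0.36). DUSP5, a phosphatase of nuclear ERK, fell with TBX2 and TBX4 (-0.26 and -0.27) and rose with TBX3 (0.33). Without the library labelled 4c-TBX5 the TBX4 calls of DUSP5 and FOSL1 were lost (edgeR adjusted p = 0.133 and 0.141), while those of EGR1, SHC1, ERBIN, SPRY2, SPRY4 and PHLDA1 were kept (at most 0.0935). Only RNA was measured, and neither receptor protein, ligand release nor ERK phosphorylation is given by these counts.

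**Figure D4:**
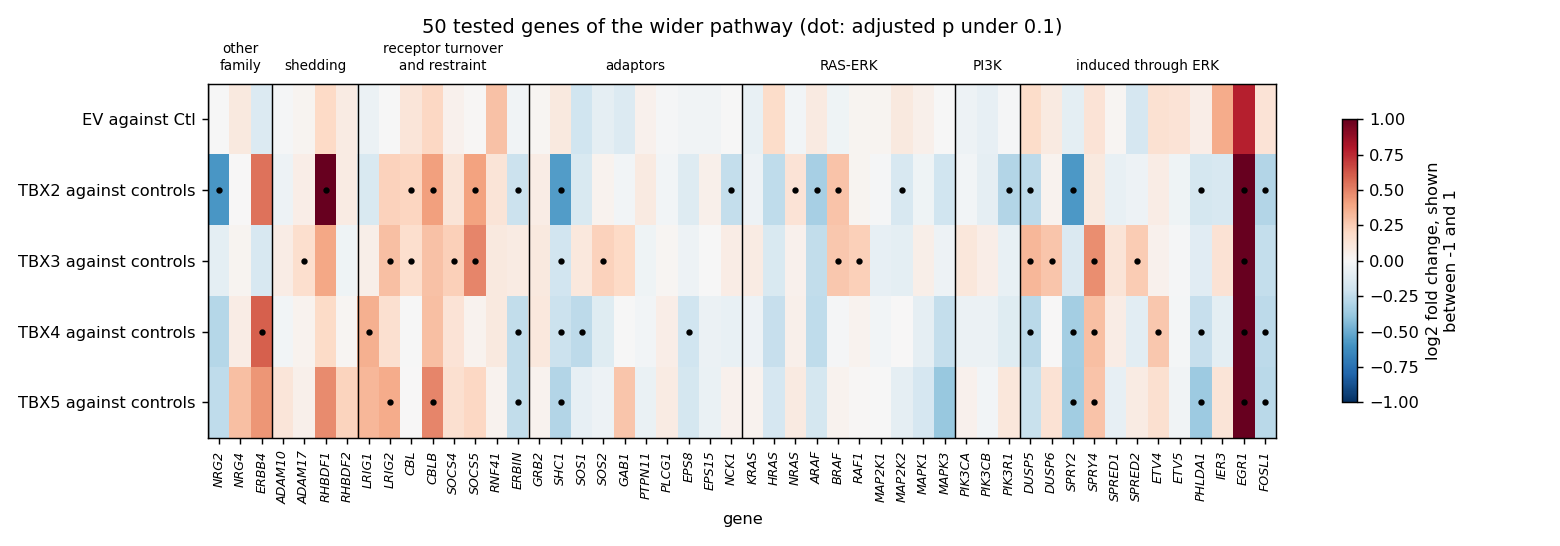
Log2 fold change (colour, limited to between -1 and 1) of the 50 tested genes of the wider pathway in columns, ordered by role, for EV against Ctl and each TBX against the 6 controls in rows, with a dot where the edgeR adjusted p was under 0.1. EGR1 is coloured and dotted in all 4 TBX rows, SHC1 is dotted and lower in all 4, and the EV row has no dots.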

How the data were processed

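Paired-end Illumina RNA-seq of 18 NCI-H1299 libraries was used. The authors demultiplexed reads with bcl2fastq 1.8.4, aligned them to GRCh37 with STAR 2.3.0 and used featureCounts with its defaults to count reads by Ensembl gene, and the deposited values are raw counts per gene without normalization. Groups and replicate letters came from the labels. The 10 genes and the lists around them were chosen with earlier results of these data known.

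A gene was tested where 10 or more of the 18 libraries held over 5 counts of it (15576 genes), with edgeR 4.0.16 (quasi-likelihood test, TMM, R 4.3.3) and p-values adjusted by Benjamini-Hochberg over all of them, at 0.1. Each TBX (3 libraries) was compared with the 6 pooled EV and Ctl libraries, EV with Ctl, and every pair of TBX groups inside a single model of the 18 libraries. SE is the size of the log2 fold change divided by the root of F, and 95% intervals use the test's degrees of freedom. The fits were tested on simulated data. With each pair of replicates scaled by its total over tested genes, without TMM, chi-square per gene was 2.26 to 254. The pair at 2.26 was EV a and b, where the most counted row took 32.67% and 34.66%. The pair at 254 was TBX3 b and c, where it took 47.45% and 10.71%. These values do not separate scatter between replicates from the share of that row. All 10 genes are named, and of the wider list those called in all 4 TBX comparisons in 1 direction, then those called in 3, and the other ligands and ERBB4. Alternatives were DESeq2 1.42.0, other scalings and filters, a replicate block, each control set alone, 1 joint fit, an FDR of 0.05 and leaving out each library. RPKM uses exon lengths of GENCODE v44 lifted to GRCh37.

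One marker gene is not reported here.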

Additional observations from a re-analysis of the deposited data

Results flagged for a closer look

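The level of the same gene differed between 2 TBX groups by a direct test in 14 cases (edgeR, adjusted p under 0.1 over all genes, 3 against 3 libraries). All are given as log2 fold changes of the first group against the second. The groups also differ in plasmid transcript level and, in some pairs, in backbone, tag or species of the factor. These cannot be told apart from the factor itself. For TGFA the values were -1.16 for TBX2 against TBX4, -0.90 for TBX2 against TBX5, -1.22 for TBX3 against TBX4 and -0.97 for TBX3 against TBX5. For EGFR they were -0.29, -0.20 and -0.26 for TBX2 against TBX3, TBX4 and TBX5. For ERRFI1 they were -0.28 for TBX2 against TBX3, 0.21 for TBX2 against TBX5, 0.39 for TBX3 against TBX4 and 0.49 for TBX3 against TBX5. For HBEGF they were 0.78 for TBX2 against TBX5 and 0.59 for TBX3 against TBX5, and for ERBB3 -0.58 for TBX2 against TBX3. The TBX4 values rest in part on the library labelled 4c-TBX5, and without it the EGFR difference between TBX2 and TBX4 was -0.18 and no longer passed (adjusted p = 0.146).

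In the 6 control libraries, ERBB3 was highest in Ctl replicate b at 5.31 CPM (60 counts), and its gap to the next library was 0.628 of the whole range. This is just past Dixon's limit for 6 values, which chance passes in about 1 of 20 groups, and 7 genes were examined.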

How the results depend on the processing

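Precision is limited by depth for HBEGF, NRG1 and ERBB3 (16 to 140 counts per library) and by 3 libraries per group. Plain library totals include the row that took 10.7% to 53.5% of a library. With them the median log2 fold change of all tested genes moved to 0.25 with TBX4, -0.31 with TBX5, 0.20 in EV against Ctl and 0.57 in TBX4 against TBX5. On that scale EGFR and ERRFI1 with TBX4 turned to 0.0446 and 0.0723 and EGFR in TBX2 against TBX5 to 0.055, all 3 within the shift and none past the threshold, and TGFA was 1.17 with TBX4 and 0.34 with TBX5 (adjusted p = 0.37). Members called there were 2 with TBX2, 0 with TBX3, 3 with TBX4 (TGFA, HBEGF and ERBB2, with EGFR, NRG1 and ERRFI1 lost) and 0 with TBX5, and between the factors 0 (TBX2 and TBX3), 1 (TBX2 and TBX4), 1 (TBX2 and TBX5), 1 (TBX3 and TBX4), 0 (TBX3 and TBX5) and 3 (TBX4 and TBX5). Pathway genes called were 4 with TBX2, 1 with TBX3, 1 with TBX5 and 1 in EV against Ctl. On that scale 833 of the 15576 tested genes were called higher and 223 lower with TBX2, and 35 and 0 with TBX3. With TBX4 2756 were higher and 33 lower, with TBX5 38 and 55, and in EV against Ctl 16 and 1. Between the factors they were 154 and 10 (TBX2 and TBX3), 51 and 25 (TBX2 and TBX4) and 393 and 26 (TBX2 and TBX5). For TBX3 and TBX4 they were 10 and 100, for TBX3 and TBX5 18 and 16, and for TBX4 and TBX5 6506 and 12. Totals without that row gave 1 member in TBX2 against TBX4 (EGFR lost, adjusted p = 0.11) and 1 pathway gene in EV against Ctl, ended the calls of ERRFI1 with TBX3 (0.12) and ERBB3 in TBX2 against TBX3 (0.13), and brought EGFR past the threshold with TBX3 (0.0715) and TBX5 (0.0946).

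With EV alone as control 1 member was called with TBX3. Without a filter, 1 member was called in TBX2 against TBX4 and 1 pathway gene in EV against Ctl, and an FDR of 0.05 left 1 member in TBX2 against TBX4. Leaving out single libraries gave 1 to 4 members with TBX3 (1 without TBX3 replicate b), 2 to 4 with TBX4 (2 without TBX4 replicate b) and 1 to 3 in TBX2 against TBX4 (1 without TBX2 replicate b, TBX4 replicate b or the library labelled 4c-TBX5). Pathway genes called ranged from 11 to 18 with TBX2 (fewest without TBX2 replicate c), 7 to 15 with TBX3 (without TBX3 replicate c), 7 to 13 with TBX4 (without TBX4 replicate a, and 8 without TBX4 replicate b), 5 to 12 with TBX5 (without TBX5 replicate c) and 0 to 3 in EV against Ctl (3 without Ctl replicate c). TGFA with TBX4 kept its call in every alternative run, and with TBX5 in all but library totals. The cause of these changes was not tested, and the fits that leave one out also hold fewer libraries.

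The labels do not say that a letter marks a shared batch, and correlations of same-letter deviations ranged from -0.115 to 0.199 (mean -0.000922), so the letters were not taken to pair the libraries. The mean between different letters was 0.00048. Of 18 libraries 10 correlated best with their own letter, some of which arises without a shared batch, and this count was not tested. With the letter as a replicate block the members called were 4, 4, 3 and 2 with TBX2 to TBX5, against 4, 4, 4 and 2 without it, and only the calls of NRG1 with TBX4 (adjusted p = 0.121) and ERBB3 in TBX2 against TBX3 (0.125) were lost.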

Other observations

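Of the 15575 other tested genes, those whose log2 CPM followed that of TGFA most closely over the 18 libraries were RPL7AP39, a ribosomal protein pseudogene (Pearson r = 0.87), ABCD2, a peroxisomal transporter of fatty acids (r = 0.86), and ACVR1C, the activin receptor ALK7 (r = 0.85). The median r over all these genes was 0.0025 and the 99th percentile 0.66. The libraries share their groups, so these values describe a pattern over 6 group levels and carry no p, and the comparison was chosen after the TGFA values were seen. ABCD2 stood at 6.61 CPM in the controls, 5.38 in the TBX2 libraries, 5.23 in TBX3, 8.74 in TBX4 and 10.4 in TBX5, and ACVR1C at 2.27, 2.67, 1.90, 3.93 and 4.62 CPM in the same order.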
